A study of Homo sapiens with 4 samples.

Results

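The 10 genes described here encode core proteins of N6-methyladenosine (m6A), a methyl mark on adenosines of messenger RNA: the writers METTL3, METTL14 and WTAP, the erasers FTO and ALKBH5, and the readers YTHDF1, YTHDF2, YTHDF3, YTHDC1 and YTHDC2. They were chosen by name with their summed CPM values in these same libraries already known, the YTHDF2 value at 30 min among them, so the values below describe the genes and test nothing. All 10 were measured, out of 31520 genes with any count. RNA came from AC16 cells, an established human hybrid line between ventricular heart tissue and fibroblasts that the labels call cardiomyocytes, given 10 nM doxorubicin, an anthracycline that traps topoisomerase II on DNA. There were 4 libraries, 1 each at 0 min (untreated), 10, 30 and 360 min. Treated cells were also washed and moved out of serum. Whether untreated cells had the same change of medium is not stated, so drug and medium change cannot be told apart in any comparison with 0 min.

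In background terms, METTL3 is the catalytic subunit and METTL14 its RNA-binding partner, and WTAP brings this pair to its nuclear sites. FTO and ALKBH5 are iron-dependent oxygenases that remove methyl groups from adenosine. The YTH-domain readers bind the mark: YTHDF2 recruits the CCR4-NOT deadenylase to marked messages, YTHDF1 and YTHDF3 act in the cytoplasm beside it, YTHDC1 works in the nucleus in splicing and export, and YTHDC2 is an RNA helicase.

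Each value is the summed count of a gene's annotated transcripts (GENCODE 29), in CPM, that is counts scaled to a common library total. A ratio is set against the 0 min library with its 95% counting interval. With 1 library per time no difference has a replicate check, no p-value was computed, and the intervals cover counting error only. The size rule asked for a ratio of 2-fold or beyond, for 5 CPM or above in either library compared, and for an interval clear of 1. Whole-locus values add the transcript models that the authors' assembly built at the gene. The 3 comparisons share the 0 min library and are therefore not independent of each other.

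Libraries held 55156612 to 56875881 counts. The 10 min library stood apart, with 14.5% of 11892 genes past the size rule against 6.8% at 30 min and 6.59% at 360 min. Of 14 cardiomyocyte markers 7 reached 1 CPM in any library, led at 0 min by NPPB, MYL2 and NKX2-5, while TNNT2, TNNI3, MYH6, MYH7, ACTN2 and NPPA stayed below 1 CPM throughout and PLN was at 0. Their summed level ran from 114 CPM at 0 min to 211 CPM at 30 min. NPPB by itself went from 37.1 to 122 CPM there and was the 1 cardiomyocyte marker past the size rule, defined above. TTN went the other way, from 16.0 to 11.8 CPM, so the sum mostly follows NPPB. Of 10 fibroblast markers 5 were measured, led by COL1A1, VIM and FN1 with DCN and LUM at 0, and their sum was 13776 CPM at 10 min against 8897 to 10522 CPM in the other libraries. The part of these shifts in the results below was not tested, and in RNA from bulk cells fewer cells of a kind and less RNA per cell cannot be told apart.

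YTHDF2 and ALKBH5 were the members past the size rule. YTHDF2 (ENSG00000198492, chromosome 1, 28736621 to 28769775, plus strand, GRCh38) has 9 annotated transcripts, and 3 of them matter here. YTHDF2-201 (ENST00000373812) and YTHDF2-209 (ENST00000542507) share the same coding exons and differ in their first exons, while YTHDF2-208 (ENST00000541996) starts its coding sequence farther in. The first 60 coding bases, read from the GENCODE 29 transcripts with the start codon in capitals, are shown because YTHDF2-201 and YTHDF2-209 trade places at 30 min with the same coding letters.
YTHDF2-201: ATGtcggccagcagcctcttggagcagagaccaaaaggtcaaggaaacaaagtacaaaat
YTHDF2-209: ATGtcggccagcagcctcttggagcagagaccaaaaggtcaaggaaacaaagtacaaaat
YTHDF2-208: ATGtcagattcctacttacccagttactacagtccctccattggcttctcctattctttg
Over all 1737 coding bases YTHDF2-201 and YTHDF2-209 were identical. The 1587 coding bases of YTHDF2-208 are the same sequence from base 151 of the longer one.

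The reader YTHDF2 stood at 18.7 CPM at 0 min, 14.4 CPM at 10 min, 72.1 CPM at 30 min and 19.6 CPM at 360 min. The 30 min library was high and the other 3 lay at 14.4 to 19.6 CPM, the 10 min library lowest. Counting intervals were 16.5 to 21.1 CPM at 0 min and 67.7 to 76.7 CPM at 30 min. The ratio to 0 min was 3.86 (3.37 to 4.44) at 30 min, 0.770 (0.637 to 0.928) at 10 min and 1.05 (0.882 to 1.25) at 360 min. The assembly added no model at this locus, so the whole-locus values were the same.

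That increase lay in YTHDF2-209. This transcript held 2 counts at 0 min, 4 at 10 min and 6 at 360 min, each under the floor of 12 counts (3 read pairs) that separates a count from 0. At 30 min it held 3581 counts, or 64.8 CPM and 89.8% of the gene. YTHDF2-201, the leading transcript of the other libraries, went the other way, with 11.4, 10.5, 4.25 and 14.8 CPM at 0, 10, 30 and 360 min.

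Without YTHDF2-209 the gene would read 18.6, 14.3, 7.34 and 19.5 CPM, and the 30 min ratio would be 0.394. That remainder depends on how shared reads were divided between the transcripts. A counting interval leaves this error out, so neither an interval nor the size rule is applied to it. The noncoding transcript YTHDF2-206 was also lowest at 30 min, with 3.75, 1.89, 1.48 and 4.19 CPM in time order. YTHDF2-208 was at 2.20, 0.540, 0.742 and 0.109 CPM, so its highest library was 0 min. The remaining 5 transcripts held at most 55 counts each in any library.

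Of the 2825 bases of YTHDF2-209, 2687 (95.1%) are exon bases of YTHDF2-201 as well, and 138 are its own. Those 138 belong to exon 1, which runs from 28736621 to 28736809 and is spliced to exon 2 at 28737047. YTHDF2-201 begins farther in, at 28736759, with a single exon to 28737147 that holds the end of that exon 1, the whole of exon 2 and the bases between them. The start codon lies at 28737121 in both, so the stretches that tell the transcripts apart are all untranslated. How the authors' estimate divided reads between transcripts with this much sequence in common was not tested.

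**Figure D1:**
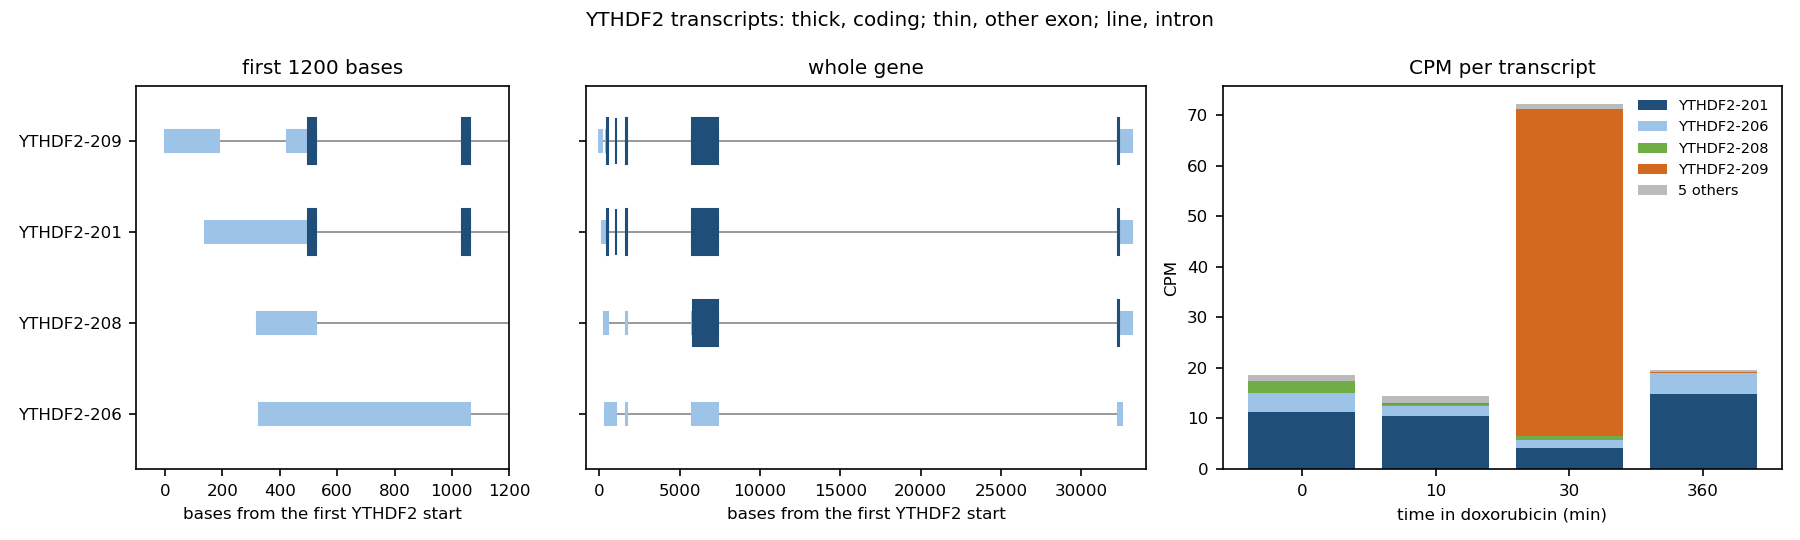
Exon structure of 4 YTHDF2 transcripts by distance in bases from the first annotated start (left, the first exons; middle, the whole gene), and stacked CPM of all 9 transcripts by time in doxorubicin, 1 library each (right). YTHDF2-209 and YTHDF2-201 have the same coding blocks and different first exons, and the 30 min bar of 72.1 CPM is mostly YTHDF2-209.

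A transcript that appears in 1 library alone was rare but not particular to this gene. At 30 min 16 of the 3459 annotated transcripts with at least 50 CPM (0.463%) were at or under the floor in all other libraries, with YTHDF2-209 among them, and the same count was 12 at 0 min, 12 at 10 min and 11 at 360 min. A change of leading transcript was common: between 0 and 30 min it was found in 19.7% of 10039 genes with at least 5 CPM in both libraries. Among these it was found in 89 of the 235 higher by the size rule (37.9%) and in 80 of the 199 lower (40.2%).

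The genes nearest to YTHDF2 in their 3 log2 ratios, by Euclidean distance over 9678 genes with a mean of at least 10 CPM, were MRPL49 (distance 0.31), MYO9A (0.38), CSRNP1 (0.54), MIEF2 (0.59) and LRP3 (0.70). MRPL49, a mitochondrial ribosomal protein gene, read 23.1, 17.2, 72.5 and 24.5 CPM, with the 30 min library alone high. MYO9A read 7.82, 6.94, 30.4 and 6.60 CPM in its annotated transcripts, but its whole locus was level at 45.6, 50.9, 51.8 and 48.8 CPM. CSRNP1 read 19.1, 17.6, 55.0 and 23.0 CPM on both measures. The likeness rests on 4 libraries.

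The eraser ALKBH5 (ENSG00000091542, chromosome 17, 18183078 to 18209954, plus strand) was at 35.6 CPM at 0 min and at 105, 111 and 99.8 CPM at 10, 30 and 360 min. The 0 min library was low and the 3 treated libraries lay close together. The ratios were 2.95 (2.66 to 3.27), 3.11 (2.81 to 3.44) and 2.80 (2.53 to 3.11), all past the size rule. Of the 10 members, 1 (ALKBH5) was higher at 10 min, 2 (ALKBH5 and YTHDF2) at 30 min and 1 (ALKBH5) at 360 min, where 7.69%, 3.55% and 3.26% of all genes were higher. Of the 10, 0 were lower at any of the 3 times, where 6.85%, 3.25% and 3.34% of all genes were lower. As these values chose the members, nothing is read from the counts.

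On the whole locus the ALKBH5 difference was smaller and no longer past 2-fold. The locus read 72.1, 133, 136 and 107 CPM, with ratios of 1.84 (1.71 to 1.99), 1.88 (1.74 to 2.03) and 1.48 (1.36 to 1.60). Assembled models held 50.6% of the locus at 0 min, 21.1% at 10 min, 18.5% at 30 min and 6.38% at 360 min, so the annotated sum missed most at the baseline. All 3 treated libraries remained above 0 min on this measure. ALKBH5 shares 11.2% of its exon bases with AC087164.1 on the other strand, and since strand use in the counting is not given in the sources used here, its values are less certain.

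The makeup of ALKBH5 differed between libraries too. The coding transcript ALKBH5-201 was at 35.6, 105, 59.8 and 56.7 CPM, highest at 10 min. ALKBH5-202, annotated as a retained intron with no coding sequence, held 1 count at 0 min and 13 at 10 min but 45.8 CPM at 30 min and 40.7 CPM at 360 min. It took 41.4% of the annotated counts at 30 min and 40.8% at 360 min. Of its 2146 bases, 1892 (88.2%) are also exon bases of ALKBH5-201, which leaves 254 of its own. How reads were divided between these transcripts was not tested.

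Windows upstream of RefSeq starts of these 2 genes (240 bases, from 250 to 11 before the start, GRCh38.p14, plus strand) are shown because YTHDF2-209 begins just past the first of them. Capitals mark GGGCGG or its reverse complement, the GC box, which was searched on both strands and found in 41.4% of 35116 RefSeq windows of this length. The YTHDF2 window shown is chr1:28736374-28736613 and the ALKBH5 window is chr17:18183578-18183817. This ALKBH5 window lies inside the gene span, past the start of the annotated transcript ALKBH5-203 at 18183078. The leading transcript ALKBH5-201 starts farther in, at 18184239. A second RefSeq window of YTHDF2, chr1:28736690-28736929, is not printed. It spans the start of YTHDF2-201, has 73.3% GC against 61.3% in the window shown, and holds 4 GC boxes against 2.
YTHDF2: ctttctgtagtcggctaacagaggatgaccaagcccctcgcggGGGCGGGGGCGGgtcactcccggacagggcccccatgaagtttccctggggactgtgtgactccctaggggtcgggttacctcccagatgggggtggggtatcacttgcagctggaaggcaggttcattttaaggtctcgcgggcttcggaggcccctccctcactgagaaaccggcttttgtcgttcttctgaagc
ALKBH5: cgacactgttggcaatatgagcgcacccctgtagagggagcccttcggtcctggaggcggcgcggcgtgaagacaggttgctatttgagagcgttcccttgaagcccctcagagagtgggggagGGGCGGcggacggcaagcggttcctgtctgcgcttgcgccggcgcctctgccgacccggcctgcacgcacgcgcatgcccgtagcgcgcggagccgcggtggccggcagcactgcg
RefSeq held starts for 9 of the 10 members, 11 windows in all, and 8 of the 11 held the GC box. The cAMP response element TGACGTCA was in 2, those of YTHDC1 and YTHDC2, against 1.57% of all windows. The E-box CACGTG was in the YTHDF1 window (6.01% of all windows) and TATAAA in that of METTL3 (10.6%). A match describes the letters in the window and no more.

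The writers kept within 1.5-fold of 0 min at every time, and none passed the size rule. WTAP was the highest, at 91.5 CPM at 0 min, 66.7 at 10 min, 77.5 at 30 min and 89.5 at 360 min, with ratios of 0.729 (0.669 to 0.793), 0.847 (0.781 to 0.919) and 0.978 (0.904 to 1.06). Its 10 min library was lowest and its 360 min library was back at the 0 min level within counting error. METTL3, the catalytic subunit, was at 38.3, 34.7, 46.8 and 40.9 CPM, with a 30 min ratio of 1.22 (1.09 to 1.37). METTL14 was the lowest of the 10 genes, at 13.5, 11.0, 15.2 and 16.5 CPM, with a 360 min ratio of 1.22 (1.00 to 1.49).

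METTL3 and METTL14 both had their lowest value at 10 min, but within counting error of 0 min. The ratios there were 0.907 (0.801 to 1.03) and 0.817 (0.656 to 1.02). No assembled model was present at any of the 3 writer loci, so these values are those of the whole loci too. METTL3 was the member whose annotated counts were most spread, over 14 transcripts: coding transcripts held 34.3, 31.8, 42.1 and 39.0% in time order, retained introns 31.5 to 37.2% and transcripts annotated for nonsense-mediated decay 23.9 to 30.2%. METTL3 shares 6.58% of its exon bases with TOX4 and WTAP 7.50% with SOD2, both on the other strand. METTL14-201 held at least 92.7% of its gene in every library. WTAP was led by WTAP-201 in all 4, at 41.9 to 53.3%.

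FTO, the other eraser, passed the size rule at no time. It was at 28.8 CPM at 0 min, 30.9 at 10 min, 21.2 at 30 min and 28.6 at 360 min, the 30 min library being the low one. The ratio there was 0.735 (0.630 to 0.856), or 0.797 on the whole locus. The transcripts that made up the sum differed from library to library. The noncoding FTO-212 led at 0 min with 16.3 CPM and was at 0, 1.16 and 0 CPM afterwards.

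FTO-206, a coding transcript, was at 9.34, 26.6, 16.8 and 12.6 CPM. FTO-214, another coding transcript, was at 0 in the first 3 libraries and at 13.3 CPM at 360 min. By these estimates coding transcripts made up 42.7% of FTO at 0 min and 98.9, 93.7 and 99.3% at the later times. The gene sum was nearly the same at 0 min (28.8 CPM) and 360 min (28.6 CPM). These shares depend on how reads were divided between the transcripts, which was not tested. Protein was not measured.

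The other cytoplasmic readers, YTHDF1 and YTHDF3, were below 0 min at 30 min. YTHDF1 was at 29.4, 15.9, 24.3 and 37.2 CPM, with ratios of 0.539 (0.456 to 0.636), 0.824 (0.712 to 0.954) and 1.26 (1.11 to 1.44). Its 10 min value was the lowest ratio of any member and short of 2-fold. A single assembled model held 45.4 to 76.2% of the YTHDF1 locus, however, and with it the locus was nearly level, at 76.7, 66.6, 64.3 and 68.2 CPM. The 360 min ratio then turned to 0.888 (0.813 to 0.970).

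YTHDF3 was at 22.0, 21.2, 15.9 and 25.0 CPM, with a 30 min ratio of 0.725 (0.607 to 0.864). On the whole locus its 4 values were 23.5, 21.9, 21.2 and 28.8 CPM and that ratio was 0.903, within counting error of 1. The transcript YTHDF3-205 led in every library, at 59.8 to 82.8% of the annotated sum.

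**Figure D2:**
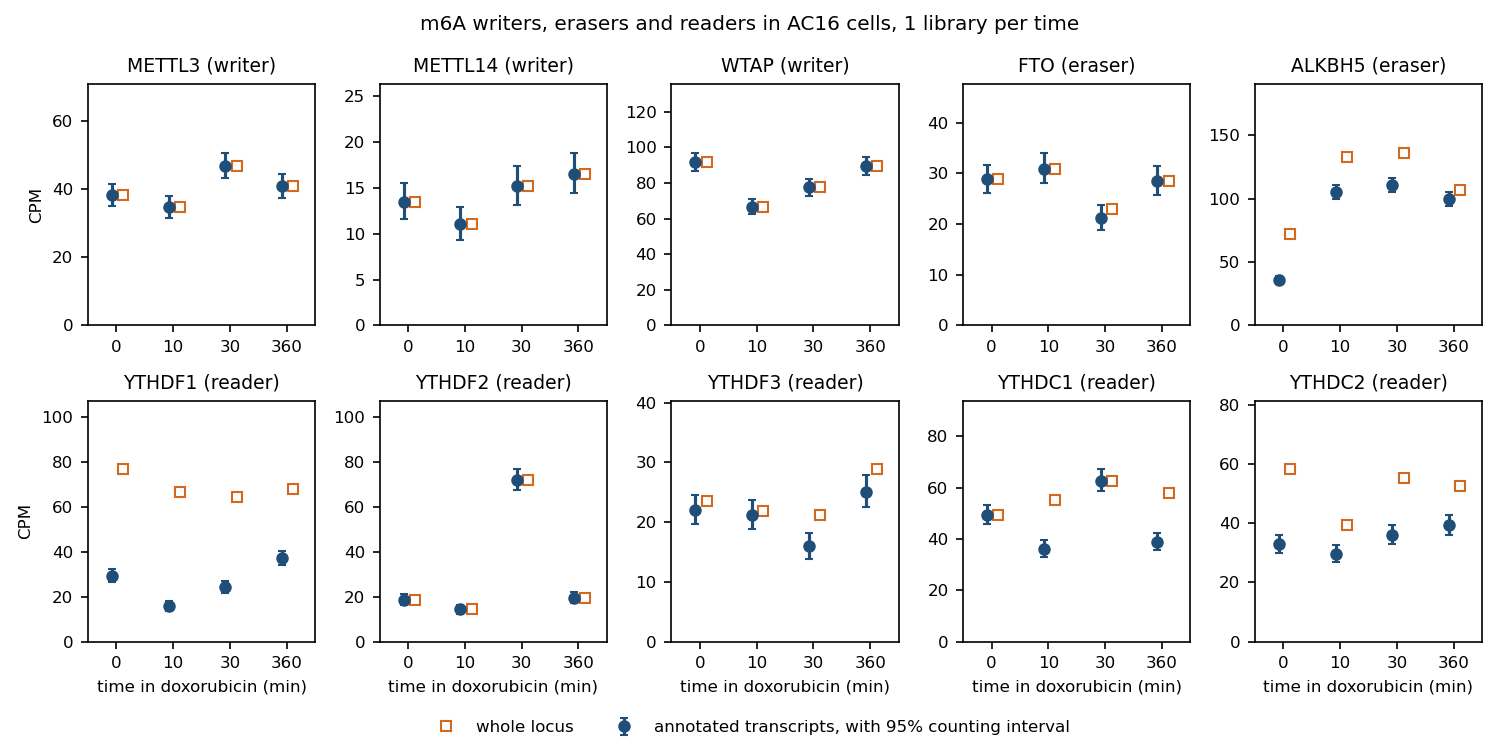
CPM of the 10 genes (vertical axes from 0, each with its own scale) at 0, 10, 30 and 360 min in doxorubicin, 1 library per time, as summed annotated transcripts with 95% counting intervals (filled circles) and as whole loci (open squares). YTHDF2 stands out at 30 min on both measures, ALKBH5 is lowest at 0 min on both, and the YTHDF1 value at 10 min is 15.9 CPM in annotated transcripts and 66.6 CPM on the whole locus.

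The nuclear reader YTHDC1 was at 49.3, 36.2, 62.7 and 39.0 CPM in annotated transcripts, with ratios of 0.735 (0.654 to 0.825), 1.27 (1.15 to 1.41) and 0.791 (0.706 to 0.887). On the whole locus all 3 treated libraries were above 0 min, at 55.3, 62.7 and 57.9 CPM, so the direction at 10 and 360 min depended on the assembled models. One model held 19.1 CPM at 10 min and another 19.0 CPM at 360 min, each at 0 elsewhere. YTHDC1-207 led at 0 min with 21.1 CPM against 5.45, 12.8 and 6.13 CPM later, and YTHDC1-201 led in the 3 treated libraries at 24.3, 39.0 and 24.6 CPM. Both are coding transcripts.

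YTHDC2, the helicase, was at 32.8, 29.6, 36.0 and 39.3 CPM, with ratios of 0.903 (0.789 to 1.03), 1.10 (0.965 to 1.25) and 1.20 (1.06 to 1.36). Its whole locus read 58.2, 39.5, 55.4 and 52.6 CPM, which put the 10 min library lowest with a ratio of 0.679 (0.609 to 0.758) and turned the 30 and 360 min ratios below 1. YTHDC2-201 held at least 84.1% of the annotated sum in each library.

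**Figure D3:**
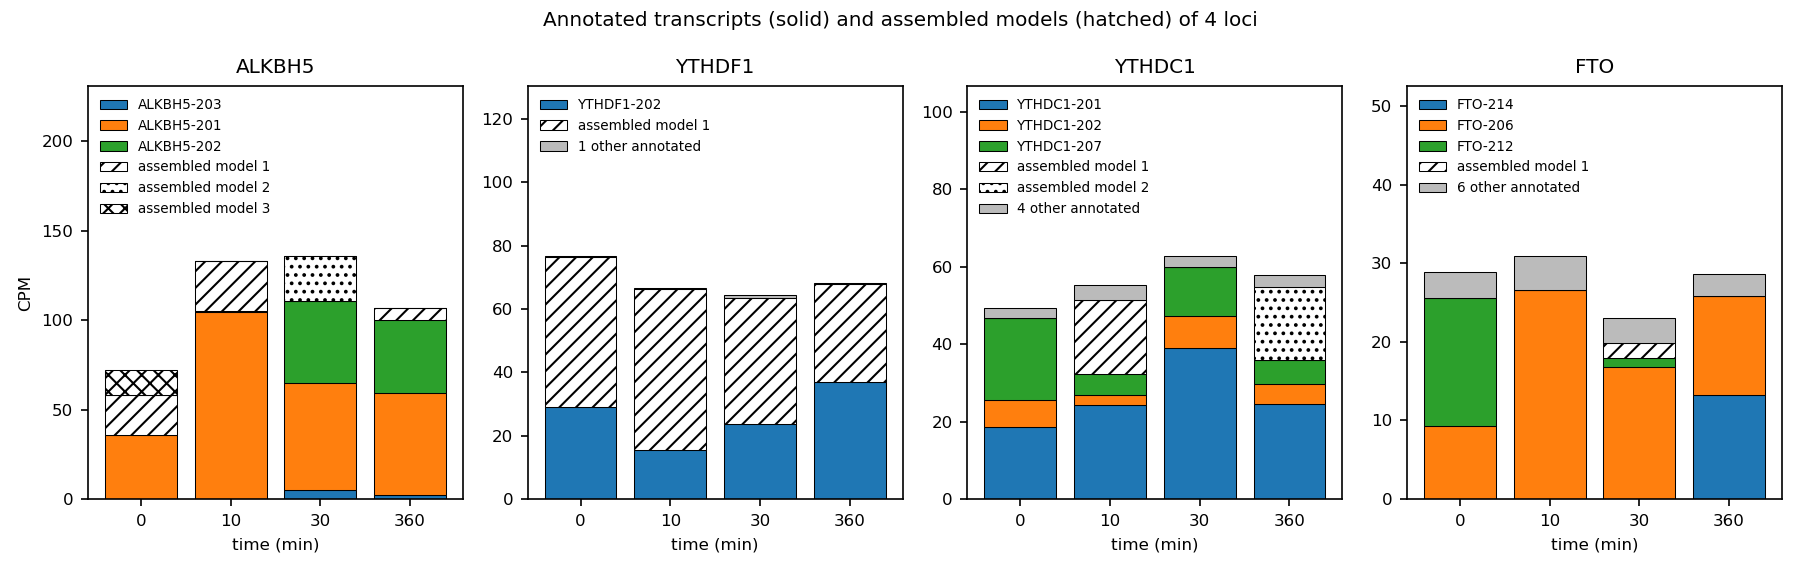
Stacked CPM of annotated transcripts (solid) and assembled models (hatched) at the ALKBH5, YTHDF1, YTHDC1 and FTO loci, by time in doxorubicin, 1 library each. The transcripts that make up a locus differ between libraries, as for FTO, where FTO-212 leads at 0 min and FTO-206 at 10 min.

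Across the 10 members the median log2 ratio was -0.22 at 10 min, 0.15 at 30 min and 0.14 at 360 min, where the medians of all genes compared were -0.04, -0.01 and 0.01. At 10 min 8 of the 10 were below 0 min, at 30 min 4 and at 360 min 3, members within counting error included. Intervals excluded 1, in either direction, for 5, 8 and 5 of the 10. On whole loci YTHDF1, YTHDC1 and YTHDC2 changed direction at some times. The share of all genes below 0 min was not computed, so nothing is read from these counts. The median absolute log2 ratio of the members was 0.33, 0.32 and 0.22, beside 0.40, 0.20 and 0.17 for all genes. On whole loci the member medians were -0.17, 0.05 and 0.08, and YTHDF2 at 30 min was the single member past the rule at any time. On that measure 5.97%, 1.64% and 0.988% of all loci were higher at 10, 30 and 360 min, and 4.66%, 1.36% and 0.988% were lower.

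**Figure D4:**
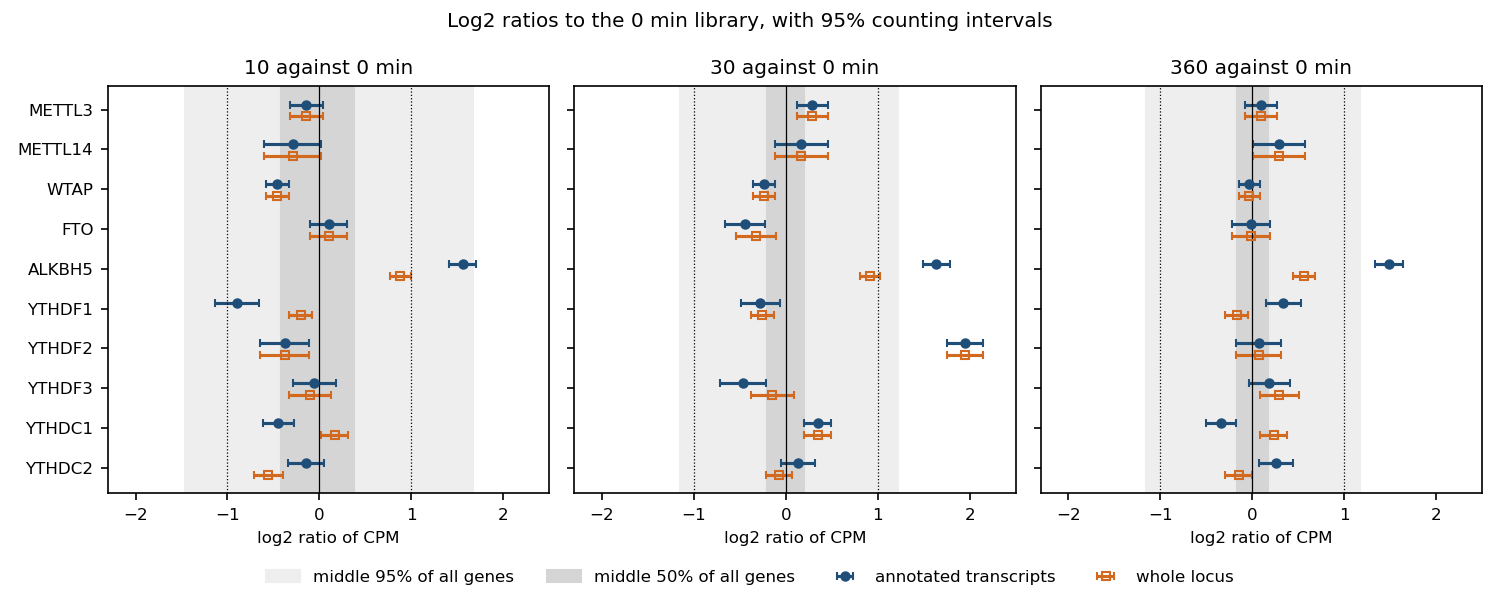
Log2 ratio of each gene to the 0 min library at 10, 30 and 360 min, with 95% counting intervals, for annotated transcripts (circles) and whole loci (squares). Grey bands hold the middle 50% and 95% of all genes compared, dotted lines mark 2-fold, and YTHDF2 at 30 min and ALKBH5 at all 3 times lie past the upper line in annotated transcripts.

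Levels of different genes were compared per length, as counts per kb of each annotated transcript scaled to the same total over all annotated transcripts in each library. At 0 min WTAP led at 103 units, followed by METTL3 at 49.0, YTHDC1 at 38.1, ALKBH5 at 29.7, FTO at 28.0, YTHDF1 at 21.1, YTHDF2 at 18.3, YTHDF3 at 14.7, YTHDC2 at 14.2 and METTL14 at 6.31. ALKBH5 and FTO differed by less than the counting errors of their CPM (9.10 and 10.2% of the value, the distance from it to an interval bound). So did YTHDF3 and YTHDC2 (11.7 and 9.49%). These errors leave out the choice of transcript length. At 30 min ALKBH5 was first at 105 units and YTHDF2 was at rank 3 with 60.6, next to METTL3 at 60.1. METTL14 was last in all 4 libraries on this scale. With the longest annotated transcript as length instead, ALKBH5 was at rank 3 and FTO at rank 9 at 0 min. The closeness of ALKBH5 and FTO above therefore depended on the length used.

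A further 45 genes were compared, those of the m6A pathway and 7 other ALKBH genes, which were listed as relatives of ALKBH5. Of these 45, all measured, 4 were lower and 0 higher past the size rule at 10 min. At 30 min 0 passed either way, and at 360 min 2 were higher and 0 lower. Of all genes, 6.85% were lower and 7.69% higher at 10 min. At 30 min 3.25% were lower and 3.55% higher, and at 360 min 3.34% were lower and 3.26% higher. The counts of 4 and 2 are thus near the background, and nothing is read from the counts of 0 in a list of 45. METTL16, a methyltransferase that acts on U6 snRNA and on the MAT2A message, was at 15.4, 29.5, 28.1 and 41.5 CPM. Its 360 min ratio was 2.70 (2.30 to 3.17), the same on the whole locus, and METTL16-201 led in all 4 libraries with at least 93.4%. All 3 treated libraries were above 0 min for METTL16.

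MAT2A, which makes the methyl donor S-adenosylmethionine, was at 159, 60.5, 96.4 and 159 CPM. The 10 min ratio was 0.380 (0.351 to 0.411), or 0.530 on the whole locus, short of 2-fold there. Over the 4 genes of methyl donor supply the median log2 ratio at 10 min was -0.61, against 0.02 over all genes with at least 1 CPM in any library, but the list was split. AHCYL1, a relative of the enzyme AHCY that clears the spent donor, went from 156 to 267 CPM, a ratio of 1.71 (1.62 to 1.80), short of 2-fold, and is named because of that value, outside the naming rule. The mRNA export receptor NXF1 was at 58.8, 28.8, 42.2 and 50.3 CPM, with a 10 min ratio of 0.489 (0.433 to 0.552) that was 0.484 on the whole locus.

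ALKBH8, a tRNA-modifying relative of ALKBH5, was at 12.5, 5.79, 11.8 and 18.6 CPM, with a 10 min ratio of 0.465 (0.352 to 0.608). Of the 12 genes that act with the readers in decay, splicing and export, NXF1 and CNOT3 were lower at 10 min (median log2 ratio of the list -0.44). CNOT3, a CCR4-NOT subunit, was at 30.2, 8.38, 31.9 and 30.3 CPM, but its whole locus had a ratio of 0.883 at 10 min. ZC3H13, a writer complex subunit, was at 5.47, 4.19, 4.76 and 11.8 CPM, and its 360 min ratio of 2.17 (1.64 to 2.87) was 1.07 on the whole locus.

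None of the 12 other readers passed the rule. The farthest at 10 min were HNRNPA2B1, a nuclear RNA-binding protein (809 to 435 CPM, ratio 0.538, 0.521 to 0.555), and IGF2BP3, which binds and stabilises messages (107 to 163 CPM, ratio 1.52, 1.42 to 1.62). The list median was -0.19 at 10 min, -0.02 at 30 min and 0.03 at 360 min. The 5 other writer complex subunits and cofactors had medians of -0.16, -0.04 and -0.02.

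**Figure D5:**
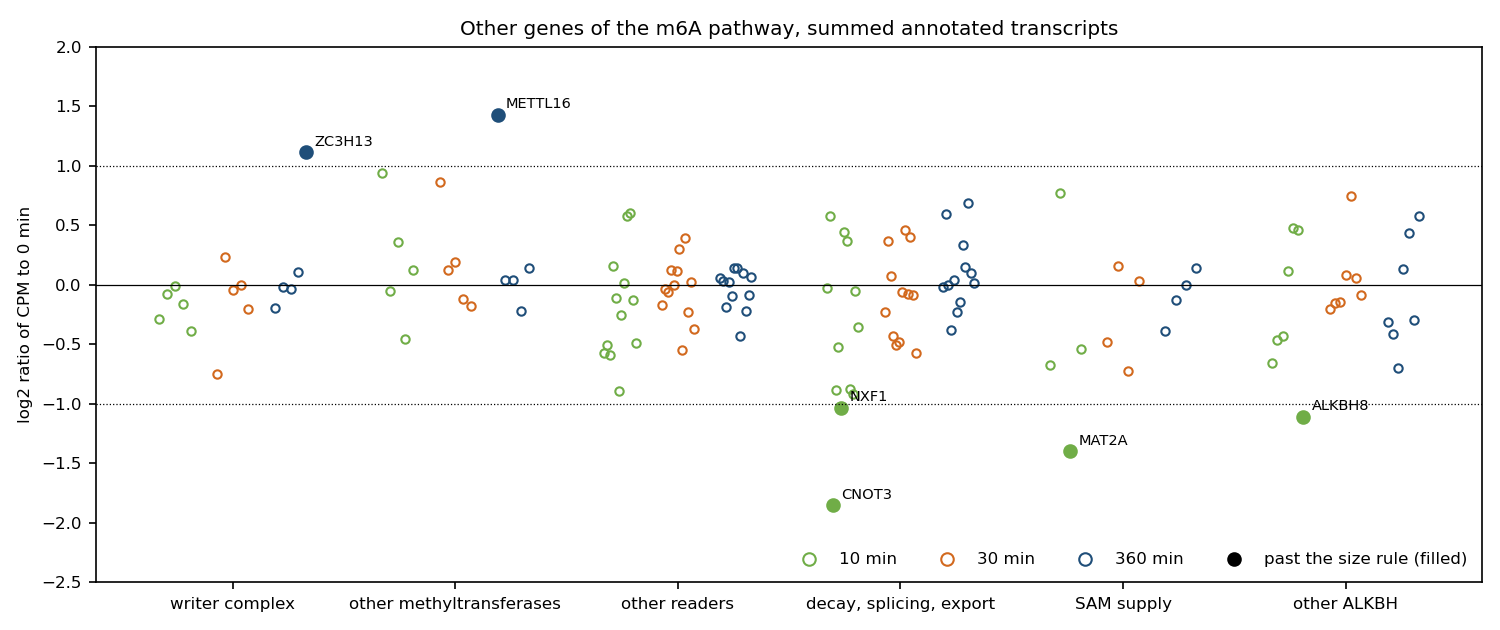
Log2 ratio to 0 min of 45 other genes in 6 groups, at 10, 30 and 360 min, 1 library per time, from summed annotated transcripts. The groups are of the m6A pathway, except for 7 other ALKBH genes listed as relatives of ALKBH5. Filled points passed the size rule, dotted lines mark 2-fold, and CNOT3, MAT2A, ALKBH8 and NXF1 lie below at 10 min with METTL16 and ZC3H13 above at 360 min.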

How the data were processed

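Poly(A) RNA of AC16 cells was sequenced in 4 libraries. The authors deposited estimated counts per locus and per transcript, whole numbers scaled neither to depth nor to length, with equal totals in both tables. HISAT2, DESeq2 and GRCh38 are named, without versions, per the submitters' processing notes; for the counting tool, annotation release and strand setting the sources used here give nothing. Of 215876 annotated transcript rows, 197268 matched GENCODE 29 and were summed into genes. CPM used column totals. A locus was tied to a gene where its counts less those of its assembled models equalled the gene's annotated sum in all 4 libraries (18209 genes, all members among them).

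Nothing states how many reads a count stands for. For intervals, 4 counts were assumed to stand for 1 read pair, a cautious assumption that widens them, which gives 13789153 to 14218970 pairs per library and counting errors of 5.14 to 17.2% of a member's CPM. Ratios carry exact conditional binomial (Clopper-Pearson) intervals and CPM exact Poisson intervals, both at 95%, from SciPy 1.17.1 (Python 3.11.15). A count of 0 entered a ratio at 3 read pairs. No molecular identifiers are recorded. With 1 library per time no test was run. Alternatives used TMM factors (edgeR 4.0.16) and median-of-ratios factors (DESeq2 1.42.0) in R 4.3.3.

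The members and lists were chosen with earlier results of these data known. Named genes are the members and the 5 genes nearest to YTHDF2. From the pathway and ALKBH lists, the genes past the size rule are named. In lists with none, the 2 with the largest ratio at 5 CPM or more are named. Promoter windows are from RefSeq (GRCh38.p14) and coding bases from GENCODE 29. Protein sequences were not used here.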

Additional observations from a re-analysis of the deposited data

Results flagged for a closer look

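Some assembled models at the members' loci, which the summed annotated transcripts leave out, were higher in a treated library than at 0 min. At YTHDC1, one model held 19.1 CPM at 10 min and another 19.0 CPM at 360 min, both at 0 at 0 min. At ALKBH5, model 2 held 25.1 CPM at 30 min and 0 at 0 min. At YTHDF3, the single model held 5.26 CPM at 30 min and 3.79 CPM at 360 min, against 1.48 CPM at 0 min. At FTO, the single model held 1.81 CPM at 30 min and 0 at 0 min. With 1 library per time these differences were not tested.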

How the results depend on the processing

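The number of members past the size rule (1, 2 and 1 at 10, 30 and 360 min) became 0, 1 and 0 on whole loci, and also 0, 1 and 0 against the median of the other 3 libraries, where ALKBH5 lost its call at all times and turned to a log2 ratio of -0.072 at 360 min. As its 3 treated libraries were alike, that median is always a treated value, so the lost ALKBH5 calls follow from the construction and do not bear on its difference from 0 min. With a 1.5-fold threshold YTHDF1 joined at 10 min, making 2. TMM and median-of-ratios factors, undivided counts and lower CPM minimums changed no member's call. Over all genes, higher and lower counts were 915 and 815, 409 and 375, and 375 and 384 at the 3 times. They were 600 and 468, 160 and 133, and 96 and 96 on whole loci, where fewer genes were compared. Without a CPM minimum they were 2261 and 1301, 993 and 900, and 802 and 904, and at 1.5-fold 1960 and 2026, 953 and 883, and 773 and 805. At a minimum of 1 CPM they were 1816 higher at 10 min, 746 and 728 at 30 min, and 636 and 719 at 360 min. The leading transcript differed between libraries for 3 members, and for 4 with assembled models counted, an alternative chosen after seeing the data. Taking the longest annotated transcript as length moved 6 of 10 ranks at 0 min. No paired analysis was possible because each time has 1 library. Leaving out a library was not possible for the same reason.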
